A study of Mus musculus with 2 samples.

Results

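The genes described here are 40 genes of DNA replication and cell division, named by a list that was drawn up with earlier results of these data known, out of 33696 genes counted in each library. They comprise 18 genes of replication (the S list), 18 genes of mitosis (the G2/M list) and 4 cyclins of the G1 phase. All 40 were present in the deposited gene list and had UMIs in both blood endothelial and tumor cells of both libraries. Levels are given as CPM, the UMIs of a gene summed over the cells of a class, divided by all UMIs of those cells and scaled to 1000000. UMIs are counted molecules, each tag standing for a captured transcript.

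Dividing cells make these genes in waves. In late G1, cyclins D and E with their kinases free the E2F factors, which turn on genes that license and copy DNA, and in G2 and mitosis a later group condenses chromosomes, builds the spindle and separates the daughter cells. In adult vessels most endothelial cells rest in G0, and division resumes where vessels grow, as in tumors.

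The cells came from mammary tumors of female C57BL/6 mice, whose age the labels do not give. Per the study, these tumors were transplants, grown from cultured cells of each subline injected into the mammary fat pad. PyMT-M and PyMT-N are sublines of MMTV-PyMT, a mouse model in which a mammary tumor virus promoter drives the polyoma middle T oncogene in mammary epithelium. The study classes PyMT-M as High-MAC (rich in macrophages) and PyMT-N as Low-MAC, and compared their endothelium. Tumors were dissociated, depleted of CD45+ and Ter119+ cells, enriched with antibodies to CD31 and CD144, sorted and profiled by the 10x Genomics 3′ v3.1 assay. Cells of 3 tumors were pooled into 1 library per subline. There was therefore no replicate, no difference between PyMT-M and PyMT-N could be tested, and subline, pool and library cannot be told apart. Intervals are exact at 95% and cover counting error only. UMIs of the same cell are not independent, so the intervals are narrower than the spread between cells or tumors.

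Of 7821 PyMT-M and 6974 PyMT-N barcodes, 6719 and 5607 were kept. Cells were placed in 5 classes by a few genes that are not among the 40. Blood endothelial cells (at least 5 UMIs of Pecam1, Flt1, Emcn and Kdr) numbered 583 in PyMT-M and 1013 in PyMT-N. Tumor cells (at least 3 UMIs of Krt8, Krt18 and Rhox5, none of Pecam1 and Flt1) numbered 4849 and 3278, lymphatic cells (Prox1, Mmrn1, Reln) 20 and 204, fibroblasts (Col3a1) 45 and 53, and Ptprc+ cells, Ptprc being the gene of CD45, 441 and 278. Endothelial markers outside the rule (9 genes such as Cdh5 and Esam) summed to 5350 and 6227 CPM in blood endothelial cells and to 40.5 and 12.7 CPM in tumor cells. The tumor class rests on its rule, since Epcam was at 3.54 and 0.414 CPM and Krt7, Krt14 and Krt19 were under 1 CPM in both libraries, while its 13-marker sum of 1436 and 4167 CPM was led by Hmga2 (603 CPM), Kcnq5 (597 CPM) and Wfdc2 (217 CPM) in PyMT-M and by Lgals7 (2062 CPM), Hmga2 (1458 CPM) and Dmp1 (396 CPM) in PyMT-N. Although the samples are labelled endothelial, tumor cells made up 72.2% of kept PyMT-M and 58.5% of kept PyMT-N cells. The libraries shared 20 barcodes, 12 of them kept, 4 of them tumor cells in both.

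Depth differed between the libraries where it matters here. The median blood endothelial cell held 5197 UMIs for PyMT-M and 12397 for PyMT-N, while the median tumor cell held 23724 and 20771. Shares of cycling cells were therefore read after each cell was thinned to 5000 UMIs, which left 301 of 583 PyMT-M and 968 of 1013 PyMT-N blood endothelial cells. A thinned cell was called G2/M with at least 5 UMIs of the G2/M list and at least as many of it as of the S list, and otherwise S with at least 5 UMIs of the S list.

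RefSeq promoter sequences were held for 32 of the 40 genes, and those of 5 genes are shown as examples of replication and mitosis genes with the motif letters searched. E2F factors bind sites such as TTTCGCGC, the CHR element TTTGAA is bound by the LIN54 subunit of the complexes that repress or activate mitosis genes, and CCAAT boxes are bound by NF-Y. Each sequence runs from 250 bases before the gene's start up to the start, 5′ to 3′ on the gene's strand, with every match to a motif on either strand in capitals. Positions are in GRCm38.p6, a different build from the mm39 used for the counts. They are chr8:75109259-75109508, strand + for Mcm5, chr11:98907901-98908150, strand + for Cdc6, chr10:69352913-69353162, strand - for Cdk1, chr11:99024190-99024439, strand - for Top2a, and chr7:135716380-135716629, strand - for Mki67.
Mcm5: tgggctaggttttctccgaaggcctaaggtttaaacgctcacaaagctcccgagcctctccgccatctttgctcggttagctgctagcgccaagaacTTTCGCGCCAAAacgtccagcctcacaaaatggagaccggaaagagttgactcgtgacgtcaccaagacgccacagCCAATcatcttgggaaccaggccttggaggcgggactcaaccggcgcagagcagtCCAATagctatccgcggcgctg
Cdc6: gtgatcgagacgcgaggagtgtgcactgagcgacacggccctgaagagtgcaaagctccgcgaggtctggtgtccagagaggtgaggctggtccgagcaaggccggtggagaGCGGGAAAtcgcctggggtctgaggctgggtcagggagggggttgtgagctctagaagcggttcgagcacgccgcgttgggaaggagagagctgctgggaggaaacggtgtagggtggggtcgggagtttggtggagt
Cdk1: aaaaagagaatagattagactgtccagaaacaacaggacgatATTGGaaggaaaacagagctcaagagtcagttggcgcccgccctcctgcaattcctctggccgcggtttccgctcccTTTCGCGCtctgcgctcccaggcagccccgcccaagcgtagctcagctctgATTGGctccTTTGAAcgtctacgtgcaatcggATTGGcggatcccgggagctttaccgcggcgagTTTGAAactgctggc
Top2a: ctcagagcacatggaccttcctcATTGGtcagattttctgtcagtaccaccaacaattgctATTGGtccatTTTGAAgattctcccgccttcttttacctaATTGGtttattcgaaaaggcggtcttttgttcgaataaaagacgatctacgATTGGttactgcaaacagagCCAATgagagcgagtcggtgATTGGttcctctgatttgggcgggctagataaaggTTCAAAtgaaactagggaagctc
Mki67: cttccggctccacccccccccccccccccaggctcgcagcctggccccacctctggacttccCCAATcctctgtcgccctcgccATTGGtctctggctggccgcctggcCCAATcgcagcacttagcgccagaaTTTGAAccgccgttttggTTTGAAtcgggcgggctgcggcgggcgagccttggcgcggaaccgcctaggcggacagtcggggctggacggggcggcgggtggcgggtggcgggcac

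The capitals in Mcm5, a subunit of the MCM helicase, are a pair of overlapping E2F letters (TTTCGCGC and GCGCCAAA) and CCAAT boxes. Cdc6, which loads that helicase onto origins, has the E2F letters GCGGGAAA and no CCAAT box. Cdk1, the kinase of mitotic entry, has E2F, CHR and CCAAT letters. Top2a, the topoisomerase that untangles sister DNA, and Mki67, which keeps mitotic chromosomes apart, have CHR and CCAAT letters and no E2F letters. An E2F site (TTTCCCGC, TTTGGCGC, TTTGCCGC or TTTCGCGC, either strand) lay in 5 of 15 S genes with a sequence (Cdc6, Mcm5, Mcm6, Mcm7, Uhrf1) and in 1 of 16 G2/M genes (Cdk1), against 2.16% of 27025 genes. TTTGAA or its complement TTCAAA lay in 1 of 15 S genes (Mcm2) and 7 of 16 G2/M genes (Ccnb2, Cdk1, Kif11, Mki67, Prc1, Top2a, Ube2c), against 18.3% of all genes. CCAAT or ATTGG lay in 12 of 15 S genes and 14 of 16 G2/M genes, against 37.5% of all genes. These are matches of letters in a window and not measured binding. Ccnd1, Ccnd2, Ccne2, Ccna2, Gins2, Mcm4, Esco2 and Aurkb had no entry.

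In blood endothelial cells 35 of the 40 genes were at least 1.5-fold higher in PyMT-M and none was 1.5-fold lower, where 11.7% and 9.74% of 11047 genes were. All 40 had at least 50 UMIs over both libraries. Their median log2 ratio was 0.95, against 0.02 over all genes counted. The S list summed to 848 CPM in PyMT-M against 486 CPM in PyMT-N (log2 ratio 0.80, interval 0.74 to 0.87) and the G2/M list to 895 and 495 CPM (0.85, 0.79 to 0.92). The G1 cyclins summed to 520 and 211 CPM (1.30, 1.21 to 1.39). The 5 genes under 1.5-fold were Mcm3 (1.30-fold), Slbp (1.39-fold), Nusap1 (1.41-fold), Tyms (1.42-fold) and Cenpf (1.44-fold), and Mcm6, at 1.50-fold, was the nearest inside.

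In tumor cells all 40 genes were at least 1.5-fold higher in PyMT-M, where 29.6% of 14922 genes were, and 34.7% were at least 1.5-fold lower. Their median log2 ratio was 2.70, against -0.08 over all genes. The G2/M list summed to 1928 CPM in PyMT-M against 238 CPM in PyMT-N (log2 ratio 3.02, 2.99 to 3.04), the S list to 1112 and 259 CPM (2.10, 2.08 to 2.12). The plot of levels by class shows that PyMT-N tumor cells were low for nearly the whole list, apart from Ccnd1.

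**Figure D1:**
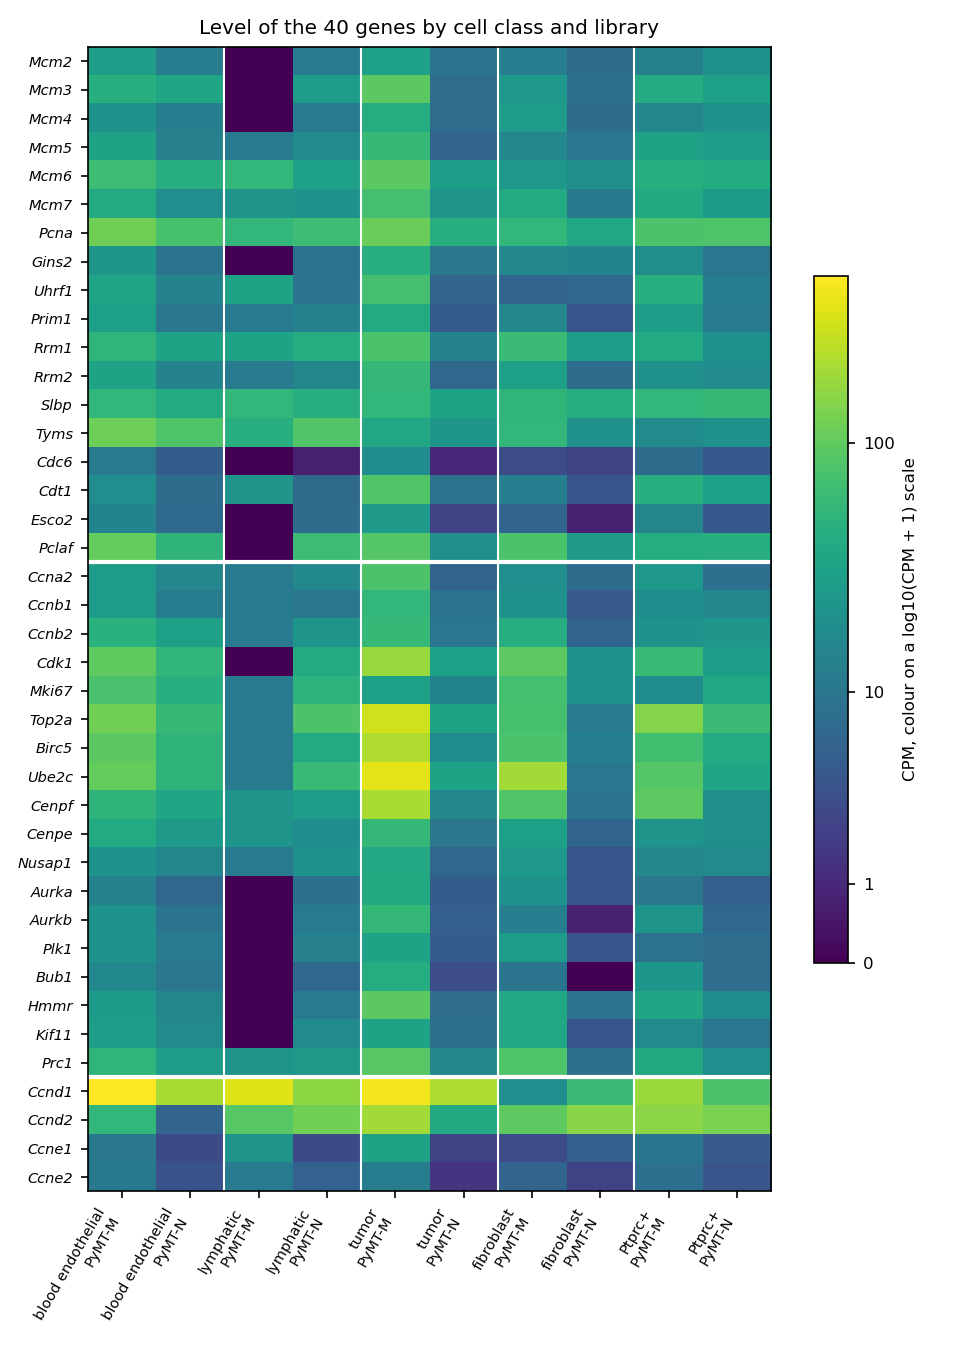
Level of each of the 40 genes (rows: S list, G2/M list, G1 cyclins, divided by white lines across) in each class and library (columns), as CPM on a colour scale of log10(CPM + 1). Ube2c reached 345 CPM and Top2a 287 CPM in PyMT-M tumor cells against 33.7 and 33.5 CPM in PyMT-N tumor cells, and the PyMT-M lymphatic column, with several genes at 0, rests on 20 cells.

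Among the genes that license origins, Cdc6 had the widest tumor ratio of the 40. Cdc6 had 36 UMIs in PyMT-M blood endothelial cells and 69 UMIs in the deeper PyMT-N cells, a CPM log2 ratio of 1.14 (0.51 to 1.74), and at 18.2 and 1.04 CPM in tumor cells, 4.12 (3.80 to 4.47). Cdt1, which loads the helicase together with Cdc6, was at 19.0 and 7.71 CPM in blood endothelial cells and at 84.3 and 8.75 CPM in tumor cells. In both classes PyMT-M was the higher library, and the level in PyMT-M tumor cells lay above the other 3.

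Of the helicase subunits Mcm2 to Mcm7, 5 passed 1.5-fold in blood endothelial cells. Mcm5 was at 32.2 CPM in PyMT-M and 13.4 CPM in PyMT-N blood endothelial cells, and at 58.5 and 6.00 CPM in tumor cells. Its log2 ratio was 1.27 (0.91 to 1.62) and 3.29 (3.15 to 3.43). Mcm3 was at 46.3 and 35.5 CPM in blood endothelial cells, a ratio of 0.38 (0.11 to 0.65), but at 95.1 and 7.94 CPM in tumor cells, 3.58 (3.46 to 3.70). Gins2, a subunit of the active helicase, and Prim1, the primase that starts each strand, had log2 ratios of 1.37 (0.95 to 1.78) and 1.55 (1.16 to 1.93) in blood endothelial cells. Pcna, the sliding clamp of the polymerases, was at 118 and 73.9 CPM in blood endothelial cells and 111 and 45.2 CPM in tumor cells. In PyMT-M its level in tumor and blood endothelial cells did not differ beyond counting error (log2 ratio -0.09, -0.24 to 0.06).

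The genes of nucleotide supply did not move alike. Rrm2, the regulated subunit of ribonucleotide reductase, was at 32.2 and 14.4 CPM in blood endothelial cells and 57.1 and 6.40 CPM in tumor cells. Tyms, which makes thymidylate, was at 115 CPM in PyMT-M and 81.4 CPM in PyMT-N blood endothelial cells and at 37.1 and 24.3 CPM in tumor cells. It was 1.52-fold higher in PyMT-M tumor cells, the smallest tumor ratio among the 40. Slbp, which binds histone messages, had the next smallest at 1.69-fold. Uhrf1, which helps to copy DNA methylation to the new strand, was 11.5-fold higher in PyMT-M tumor cells, at 73.1 and 6.37 CPM. Esco2, a cohesin acetyltransferase of S phase, was at 26.0 and 2.31 CPM there, and Pclaf, which binds Pcna, at 88.3 and 20.0 CPM.

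Of the 18 mitosis genes 16 passed 1.5-fold in blood endothelial cells. Top2a was at 121 CPM (110 to 134) in PyMT-M and 58.2 CPM (54.3 to 62.4) in PyMT-N blood endothelial cells, and at 287 CPM (284 to 290) and 33.5 CPM (32.2 to 34.9) in tumor cells. Ube2c, the ubiquitin carrier of the anaphase-promoting complex, was at 104 and 51.2 CPM in blood endothelial cells and 345 and 33.7 CPM in tumor cells. For both genes the order of levels was PyMT-M tumor, PyMT-M blood endothelial, PyMT-N blood endothelial, PyMT-N tumor, and no neighbouring intervals overlapped. Cdk1 had the same order, at 171, 98.8, 54.2 and 31.0 CPM.

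Its cyclin partners were lower in level. Ccnb1 was at 27.9 and 11.8 CPM in blood endothelial cells and 55.9 and 8.82 CPM in tumor cells, and Ccna2, the cyclin of S phase and G2, at 27.3 and 15.8 CPM and at 79.3 and 6.09 CPM. The centromere protein gene Cenpf was at 51.5 and 35.7 CPM in blood endothelial cells and at 204 and 15.8 CPM in tumor cells. Bub1, a checkpoint kinase at kinetochores, was 13.5-fold higher in PyMT-M tumor cells and 1.58-fold higher in PyMT-M blood endothelial cells. Among the mitotic kinases Aurka, Aurkb and Plk1 the log2 ratios were 0.90 to 1.15 in blood endothelial cells and 2.74 to 3.43 in tumor cells. The spindle genes Kif11, a motor, and Prc1, a crosslinker of midzone microtubules, were 4.14-fold and 5.82-fold higher in PyMT-M tumor cells. In PyMT-M and PyMT-N blood endothelial cells Birc5 was at 95.1 and 52.3 CPM, Cenpe at 40.5 and 25.6 CPM and Hmmr at 27.0 and 15.4 CPM. In tumor cells Birc5 was at 211 and 18.3 CPM, Cenpe at 56.8 and 10.1 CPM and Hmmr at 94.3 and 7.90 CPM.

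Mki67 did not follow the other mitosis genes. It was at 77.0 CPM (67.8 to 87.1) in PyMT-M and 45.6 CPM (42.1 to 49.3) in PyMT-N blood endothelial cells, but at 31.8 CPM (30.8 to 32.8) in PyMT-M tumor cells and 14.7 CPM (13.8 to 15.6) in PyMT-N tumor cells. In each library the tumor level lay below the blood endothelial level, by a log2 ratio of -1.28 (-1.46 to -1.09) in PyMT-M. Thus the library and class with the highest Top2a, Ube2c and Cdk1 had less Mki67 than blood endothelial cells of either library. Tyms, of the S list, had the same order of levels. Its log2 ratio of tumor over blood endothelial cells was -1.64 in PyMT-M and -1.74 in PyMT-N.

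Of the G1 cyclins, Ccnd1 was high in blood endothelial and tumor cells of both libraries and the others were lower. Ccnd1 was at 443 and 199 CPM in blood endothelial cells and 403 and 208 CPM in tumor cells, the highest level of the 40 in all 4. At 5000 UMIs it was found in 77.4% of PyMT-M and 43.7% of PyMT-N blood endothelial cells. Ccnd2 was at 56.1 CPM (48.3 to 64.9) in PyMT-M and 6.33 CPM (5.07 to 7.81) in PyMT-N blood endothelial cells, the widest ratio of the 40 in this class (log2 3.15, 2.77 to 3.53). It was found in 17.6% and 2.48% of thinned cells. In PyMT-N its level was 39.5 CPM in tumor cells and 121 CPM in lymphatic cells, both above blood endothelial cells. Ccne1 was at 10.4 and 2.91 CPM in blood endothelial cells and 32.5 and 2.31 CPM in tumor cells, and Ccne2 at 10.7 and 3.64 CPM and at 11.8 and 1.54 CPM.

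**Figure D2:**
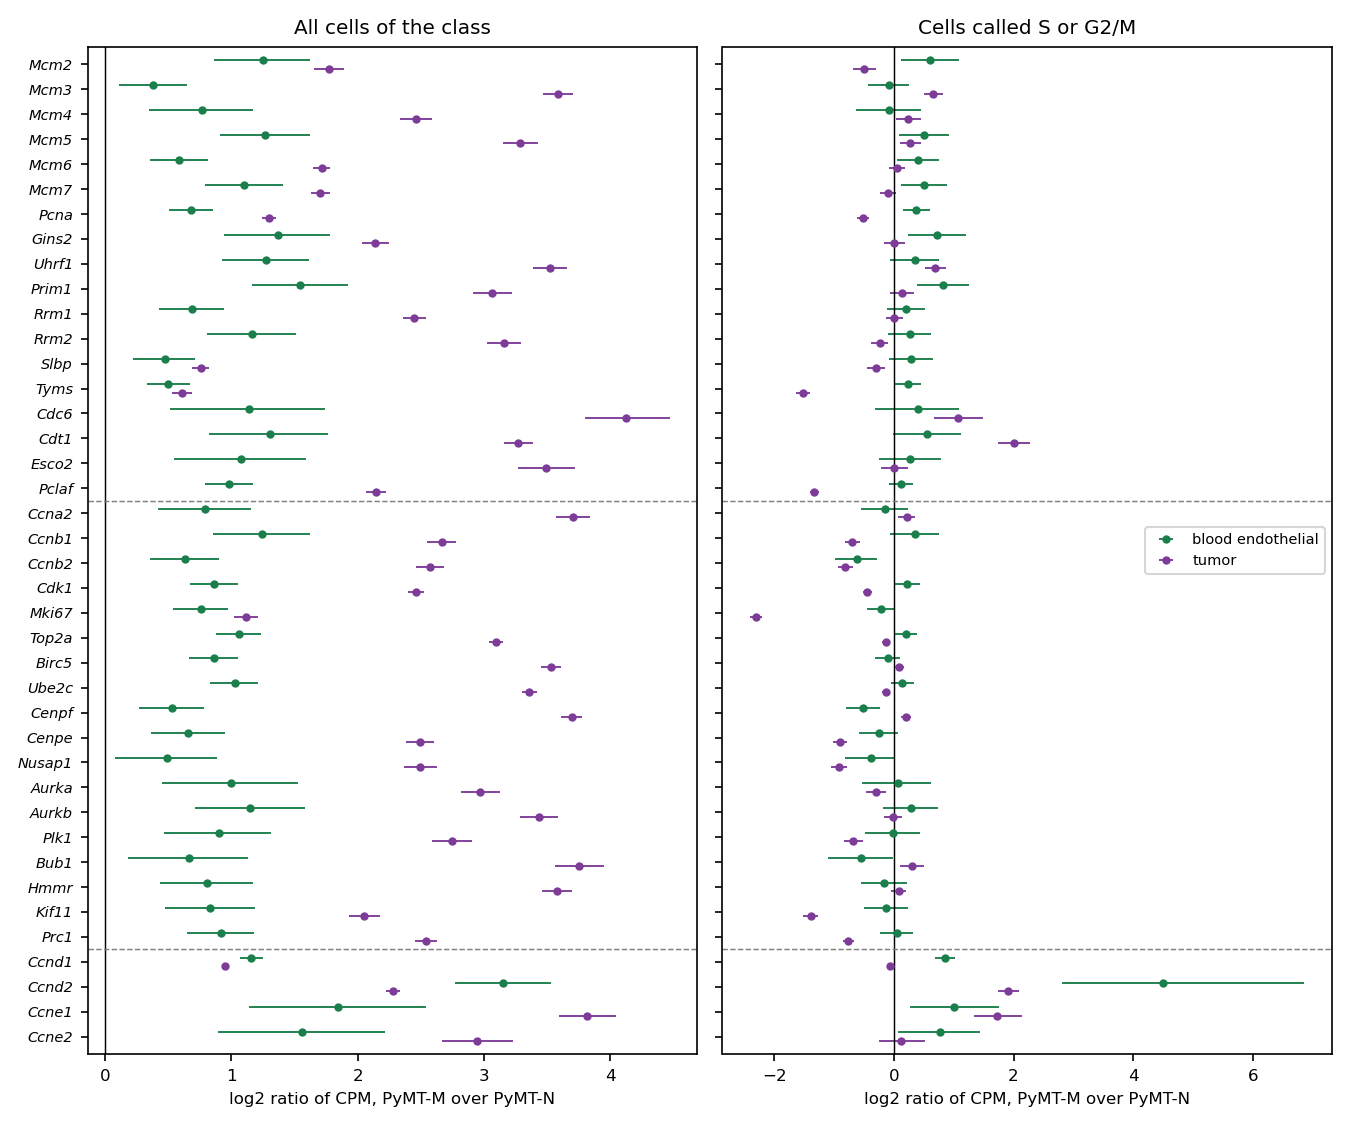
Log2 ratio of CPM in PyMT-M over PyMT-N for each gene (rows, in the order of the lists) in blood endothelial cells and tumor cells, over all cells of the class and over cells called S or G2/M with the gene left out of the call. Points are ratios and bars exact 95% intervals that cover counting error. Over all cells every point lies above 0, while among cycling cells most mitosis genes lie near or below 0 and Mki67 falls to -2.30 in tumor cells.

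Within a library the order of the classes turned. In PyMT-M 26 genes were at least 1.5-fold higher in tumor than in blood endothelial cells and 2 (Tyms, Mki67) lower, where 30.9% and 32.2% of 13481 genes were, with a median log2 ratio of 0.83 against -0.03. In PyMT-N 1 gene (Ccnd2) was higher in tumor cells and 30 were lower, where 25.4% and 27.3% of 13942 genes were, with a median of -1.06 against -0.03. There were 26 genes whose interval lay above 0 in PyMT-M and below 0 in PyMT-N, among them Mcm3 (1.04 and -2.16), Cenpf (1.99 and -1.18) and Top2a (1.24 and -0.80). The share of all genes with this opposite pattern was not counted, so the 26 are a description. Tyms, Pclaf and Mki67 were lower in tumor cells in both libraries, and Mcm7 and Ccnd2 higher in both.

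The share of cycling cells had the same order. At 5000 UMIs, 107 of 301 PyMT-M blood endothelial cells (35.5%, 30.1 to 41.2) and 128 of 968 PyMT-N blood endothelial cells (13.2%, 11.2 to 15.5) were called S or G2/M. Of tumor cells 77.1% (75.9 to 78.3) were called in PyMT-M and 4.46% (3.78 to 5.22) in PyMT-N. S and G2/M calls were even in blood endothelial cells, at 17.6% and 17.9% for PyMT-M, and 6.82% and 6.40% for PyMT-N. In PyMT-M tumor cells G2/M calls (50.9%) exceeded S calls (26.2%), and in PyMT-N they were 2.66% and 1.80%. However, 1922 PyMT-M tumor cells (39.8%) reached 5 UMIs of both lists, against 1.89% of PyMT-N tumor cells. In blood endothelial cells 20.6% of PyMT-M and 5.37% of PyMT-N cells did. The phase of such cells rests only on which list had more UMIs, with ties called G2/M.

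The blood endothelial share moved with depth, and that part was not tested. Without thinning, the same cutoff called 27.3% of PyMT-M and 31.3% of PyMT-N blood endothelial cells, the opposite order, with PyMT-N the deeper library. Among cells of 5000 to 8000 UMIs 53 of 196 PyMT-M cells (27.0%, 21.0 to 33.8) were called at 5000 UMIs, against 12 of 136 PyMT-N cells (8.82%, 4.64 to 14.9). Among cells of 8000 to 20000 UMIs the shares were 50.5% (40.5 to 60.5) of 103 and 11.3% (9.05 to 13.9) of 689. Among cells of 3000 to 5000 UMIs, thinned to 3000 with a cutoff of 3, they were 14.8% (9.88 to 20.9) of 176 and 7.89% (1.66 to 21.4) of 38, which overlap. Among cells of 2000 to 3000 UMIs, thinned to 2000 with a cutoff of 2, 8 of 68 PyMT-M cells (11.8%, 5.22 to 21.9) and 1 of 6 PyMT-N cells (16.7%, 0.421 to 64.1) were called. In the band of 8000 to 20000 UMIs the G2/M list was at 1545 CPM in PyMT-M and 369 CPM in PyMT-N (log2 ratio 2.07, 1.98 to 2.15). Its log2 ratio was 2.32 (2.07 to 2.58) in cells of 5000 to 8000 UMIs and 1.29 (0.64 to 2.01) at 3000 to 5000 UMIs. From the deepest band to the shallowest, the S list ratios were 1.72 (1.63 to 1.81), 1.31 (1.12 to 1.50), 0.42 (-0.05 to 0.92) and 0.15 (-1.30 to 2.08). The last 2 intervals included 0. If none of the cells below 5000 UMIs were cycling, the shares would be 18.4% and 12.6%.

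**Figure D3:**
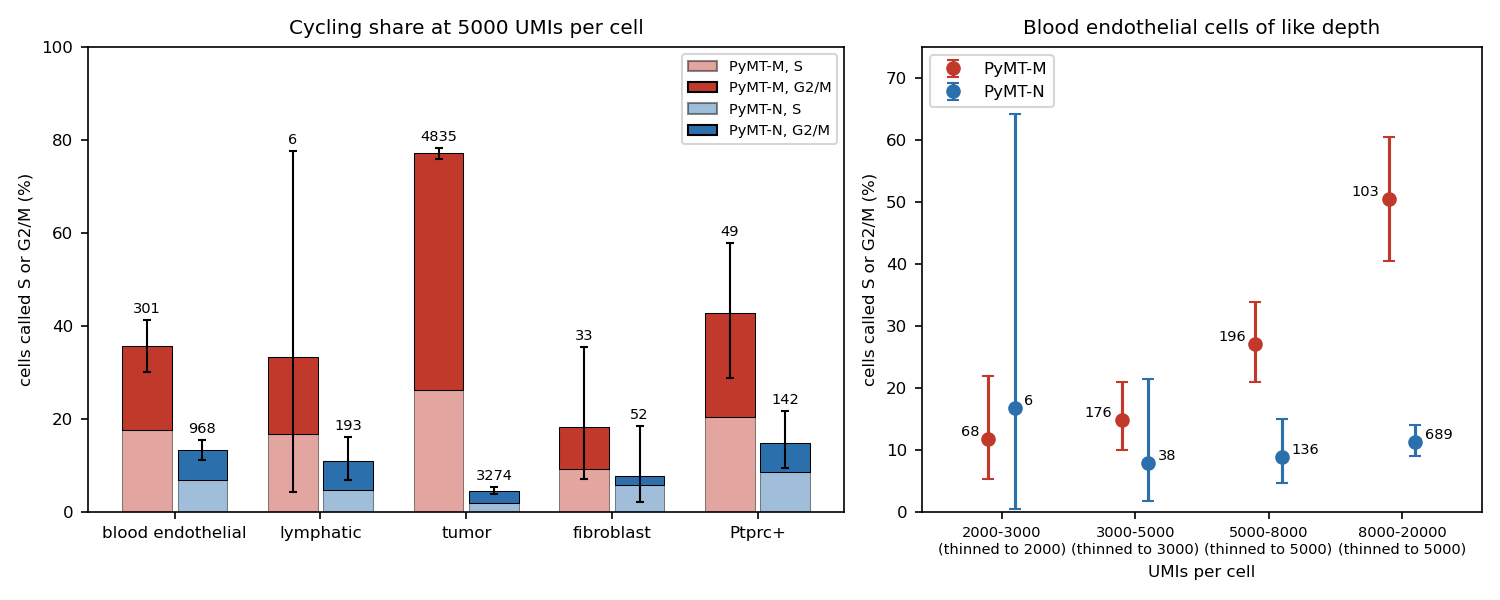
Percent of cells called S (pale) and G2/M (dark) at 5000 UMIs per cell in 5 classes of each library, and the percent called in blood endothelial cells grouped by their UMIs before thinning. Bars are exact 95% intervals and the numbers are cells. PyMT-M stands at 35.5% against 13.2% in blood endothelial cells and 77.1% against 4.46% in tumor cells, and the PyMT-M blood endothelial share goes from 11.8% to 50.5% over the depth groups, the shallower of which were thinned to fewer UMIs.

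Tumor-marker RNA in blood endothelial cells was low. The 13 tumor markers were at 2.71% (PyMT-M) and 0.737% (PyMT-N) of their tumor-cell level in blood endothelial cells, and at that percent the G2/M list of tumor cells would give 52.3 and 1.76 CPM, against 895 and 495 CPM measured. Lymphocyte markers (3.68 and 1.67 CPM) and myeloid markers (14.7 and 10.3 CPM) were near 0 in blood endothelial cells. Fibroblast markers were at 35.3 and 8.66 CPM and pericyte markers at 101 and 280 CPM. The PyMT-N pericyte sum was led by Abcc9 (25.8 and 152 CPM) and Kcnj8 (9.51 and 124 CPM). The pericyte markers Rgs5 (50.6 and 3.13 CPM), Notch3 (10.7 and 0.218 CPM) and Cspg4 (3.99 and 0 CPM) were higher in PyMT-M. Wfdc2, a single tumor marker, was at 15.6 CPM in PyMT-M blood endothelial cells against 217 CPM in tumor cells. The class rule allows at most 1 UMI of Krt8, Krt18 and Rhox5, and cells with a Ptprc UMI were left out. That favors low tumor, lymphocyte and myeloid marker levels here, so these values are a description. The part of RNA from any of these cells in the result was not tested.

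The distribution of list UMIs per cell differed in form. In blood endothelial cells most cells had few list UMIs and a long tail held many, and 44.5% of PyMT-M and 73.3% of PyMT-N cells had no UMI of the G2/M list. PyMT-M tumor cells had a median of 5 S and 7 G2/M UMIs, and 3.04% of them had no UMI of either list, against 37.3% of PyMT-N tumor cells. Cells next to the cutoff had 4 or 5 UMIs of whichever list had more UMIs in the cell. They were 8.56% of PyMT-M and 1.34% of PyMT-N tumor cells, and 7.31% and 4.86% of blood endothelial cells. In PyMT-M tumor cells the call thus cuts a continuous range.

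**Figure D4:**
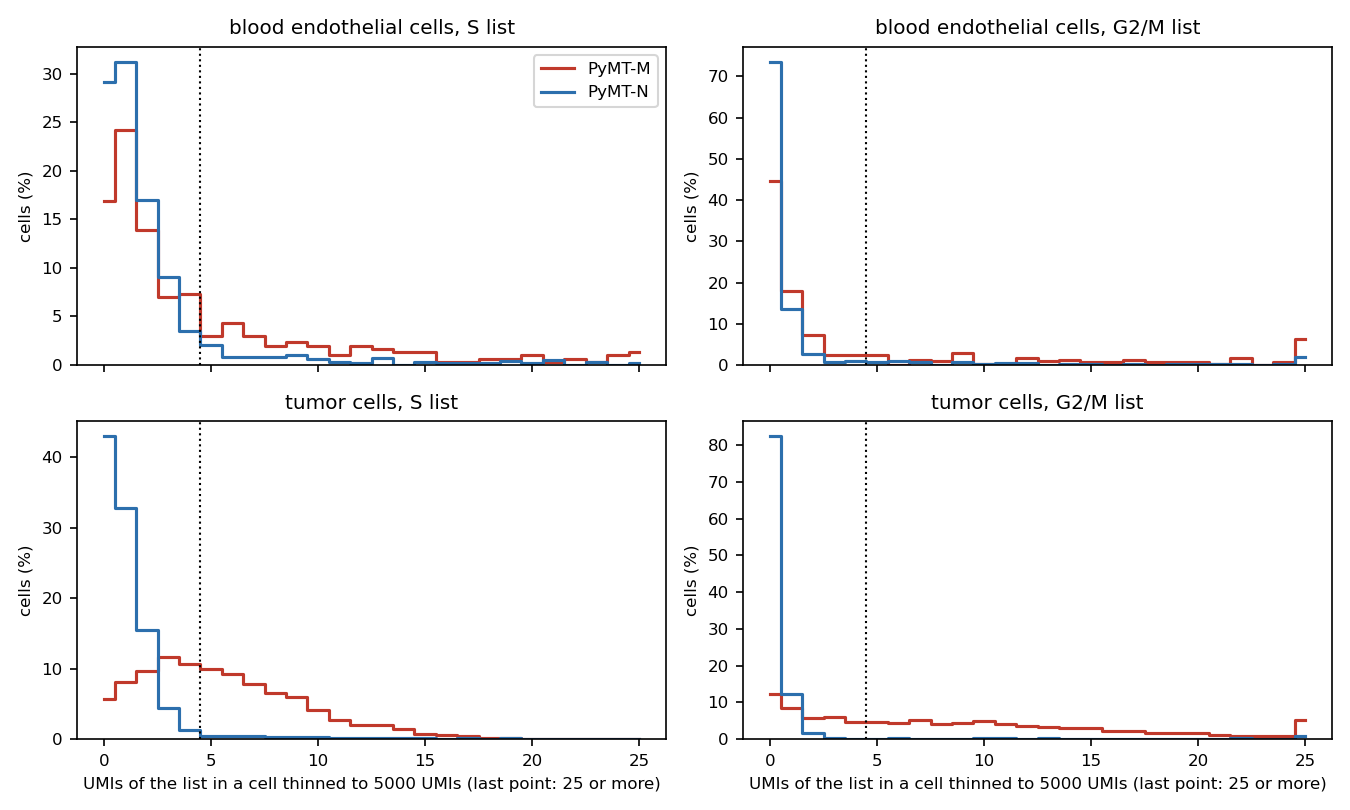
Percent of cells (vertical axis) with a given number of UMIs of the S list or the G2/M list (horizontal axis) after thinning to 5000 UMIs, for blood endothelial and tumor cells of both libraries. The dotted line marks the cutoff of 5 UMIs. PyMT-M tumor cells spread across it, with a median of 5 S and 7 G2/M UMIs, while 82.5% of PyMT-N tumor cells had no G2/M UMI.

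Cells left uncalled carried this too. In uncalled PyMT-M tumor cells Top2a was at 51.4 CPM and Ube2c at 55.3 CPM, against 7.17 and 0.963 CPM in uncalled PyMT-N tumor cells. Uncalled blood endothelial cells held 7.11 and 2.92 CPM of Top2a and 9.21 and 2.56 CPM of Ube2c in PyMT-M and PyMT-N. Esco2 had no UMI at all in uncalled blood endothelial cells of either library, against 48 UMIs in cycling cells of PyMT-M and 96 of PyMT-N.

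Levels within cycling cells, read with each gene left out of its own call, were much closer between the libraries. The call asks for at least 5 UMIs of the other S or G2/M genes in both libraries. That draws the levels of these lists together in both classes, so the closeness is a description. In blood endothelial cells 6 of the 39 genes with at least 50 UMIs were 1.5-fold higher in PyMT-M and 1 lower, where 8.55% and 10.4% of 7484 genes were, and the median log2 ratio was 0.22 against -0.02. The 6 were Mcm2 (0.61), Gins2 (0.72), Prim1 (0.83), Ccnd1 (0.85), Ccne1 (1.01) and Ccne2 (0.76), all of G1 or replication, and the 1 was the cyclin Ccnb2 (-0.62, -0.98 to -0.28). Top2a was at 393 CPM in 107 PyMT-M and 340 CPM in 128 PyMT-N cycling blood endothelial cells. Mki67 was at 229 and 265 CPM, a log2 ratio of -0.21 (-0.44 to 0.02). Ccnd2, with 28 and 3 UMIs, was at 30.1 and 1.33 CPM (4.50, 2.80 to 6.86).

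In cycling tumor cells 6 of 40 genes were 1.5-fold higher in PyMT-M and 10 lower, where 28.8% and 25.7% of 13069 genes were, and the median was -0.04 against 0.05. Top2a was at 350 and 382 CPM and Ube2c at 425 and 466 CPM, log2 ratios of -0.13 and -0.14. The wide gaps over all tumor cells were not seen here, which the call itself favors. Mki67 was at 39.0 CPM in PyMT-M and 192 CPM in PyMT-N cycling tumor cells (-2.30, -2.40 to -2.20), against 229 and 265 CPM in cycling blood endothelial cells. Tyms (42.9 and 123 CPM), Pclaf (108 and 271 CPM) and Kif11 (41.0 and 108 CPM) were lower in PyMT-M as well. Cdt1 (91.7 and 22.8 CPM), Ccnd2 (180 and 47.9 CPM), Ccne1 (log2 ratio 1.73) and Cdc6 (21.5 and 10.3 CPM) were higher. The PyMT-N values rest on 135 to 146 cells, the PyMT-M values on 3644 to 3729.

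Levels in G2/M and S cells are given as a description, since the calls rest on the other genes of the same lists and largely fix the side on which a gene lies. Uncalled cells are not part of this contrast. Cdc6 was at 10.4 CPM in G2/M and 51.1 CPM in S cells of PyMT-M blood endothelium (log2 ratio -2.30, -4.05 to -0.87) and Cdt1 at 16.6 and 81.1 CPM. At the other end Cenpf was at 281 CPM in G2/M and 23.2 CPM in S cells (3.60, 2.71 to 4.63) and Ccnb1 at 152 and 17.4 CPM. Cdk1 (0.92) and Aurkb (0.88) were closer to even. On the S list Mcm6, Uhrf1, Rrm1, Rrm2, Slbp, Tyms, Esco2 and Pclaf had intervals that included 0 in PyMT-M blood endothelial cells, and Esco2 was higher in G2/M cells of both tumor libraries (0.31 and 0.95).

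**Figure D5:**
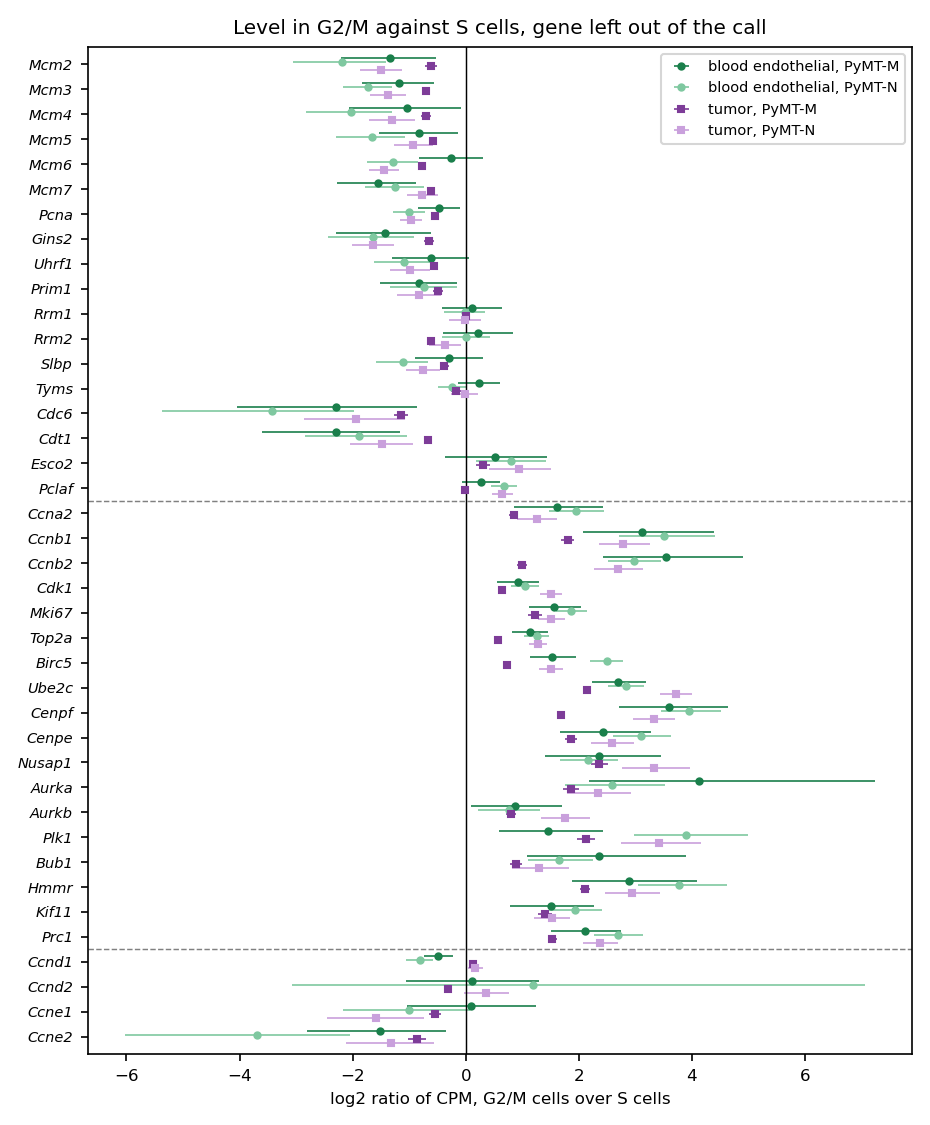
Log2 ratio of CPM in G2/M over S cells for each gene (rows) in blood endothelial and tumor cells of both libraries, with the gene left out of the call and exact 95% intervals as bars. Most S genes lie left of 0 and G2/M genes right of it, from -2.30 for Cdc6 to 3.60 for Cenpf in PyMT-M blood endothelial cells, and Rrm1 lies at 0.11.

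The D cyclins did not mark cycling cells in the same way. Ccnd1 was at 551 CPM in cycling and 432 CPM in uncalled PyMT-M blood endothelial cells, and at 305 and 179 CPM in PyMT-N. Ccnd2 was lower in cycling cells, at 30.1 against 78.2 CPM in PyMT-M (-1.38, -2.03 to -0.77) and 1.33 against 7.16 CPM in PyMT-N (-2.43, -4.73 to -0.83). Ccne1 was at 32.2 against 1.42 CPM and Ccne2 had 33 UMIs against 0 in PyMT-M.

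Cycling blood endothelial cells had lower levels of the arterial, capillary, tip, venous and endothelial markers than uncalled cells in both libraries. The 8 arterial markers (Gja5, Gja4 and others) were at 251 against 469 CPM in PyMT-M and 305 against 765 CPM in PyMT-N. The 7 capillary markers were at 4280 against 5959 CPM and 1686 against 3284 CPM, the 8 tip markers at 2188 against 3503 CPM and 1797 against 2156 CPM, and the 7 venous markers at 487 against 627 CPM and 584 against 633 CPM. Endothelial markers were at 4092 against 5591 CPM and 4772 against 6499 CPM. Pericyte markers were at 142 against 110 CPM in PyMT-M (log2 ratio 0.36, 0.02 to 0.71), and lower in cycling cells of PyMT-N (-1.80, -2.01 to -1.60). Over all PyMT-N blood endothelial cells this sum was led by Abcc9 and Kcnj8. Tumor markers were at 59.1 against 41.2 CPM (0.52, -0.04 to 1.08) and 20.0 against 33.1 CPM (-0.73, -1.21 to -0.28). Called cells were also deeper, with medians of 7574 (S) and 8294.5 (G2/M) against 6702.5 UMIs in PyMT-M and of 17021.5 and 14373 against 12244 in PyMT-N, and the part of depth and of these other markers was not tested.

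Other genes of the cell cycle were read from lists that do not overlap the 40. Of other replication genes 27 of 38 with at least 50 UMIs were 1.5-fold higher in PyMT-M blood endothelial cells and none lower, where 11.7% and 9.74% of all genes were, with Tk1, a thymidine kinase, at 51.2 and 17.3 CPM, Mcm10 at 8.90 and 3.06 CPM and Dtl at 19.0 and 6.99 CPM. Rpa3, Exo1 and Pola2 had the lowest ratios, from 0.00 to 0.21 on the log2 scale. Of other mitosis genes 37 of 44 were higher and none lower, beside the same 11.7% and 9.74%, with the kinase gene Pbk at 20.2 and 6.33 CPM, the phosphatase gene Cdc25b at 14.1 and 4.88 CPM and Sgo1, which guards cohesion, at 10.4 and 4.22 CPM. Bora (-0.01), Bub3 (0.06) and Smc2 (0.36) had the lowest ratios. In tumor cells 38 of 40 and 43 of 44 were higher in PyMT-M and none lower, where 29.6% and 34.7% of all genes were.

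Regulators were less uniform. Of 17 regulators 8 were 1.5-fold higher in PyMT-M blood endothelial cells and none lower, where 11.7% and 9.74% of all genes were. Myc was at 39.6 and 12.9 CPM, E2f1 at 14.4 and 6.11 CPM and Foxm1, a factor that drives mitosis genes, at 13.2 and 5.68 CPM. Cdk2 (-0.41), E2f3 (-0.15) and Lin9 (-0.11) were lowest, each with an interval that included 0. In tumor cells 13 of 17 were higher and 2 lower in PyMT-M, where 29.6% and 34.7% of all genes were, with Myc at 139 and 14.1 CPM and Foxm1 at 23.6 and 3.92 CPM.

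Of 14 inhibitors and antiproliferative genes 3 were 1.5-fold higher and 2 lower in PyMT-M blood endothelial cells, near the 11.7% and 9.74% of all genes, with a median log2 ratio of -0.11. Cdkn1a, the gene of the kinase inhibitor p21, was at 186 and 106 CPM, Ccng1 at 27.0 and 15.5 CPM and Cdkn2c at 18.7 and 11.9 CPM. Ccng2, a cyclin of resting cells, was at 7.36 and 21.5 CPM (-1.55, -2.21 to -0.95), Cdkn2a at 2.45 and 4.66 CPM (-0.92, -2.20 to 0.14) and Btg1 at 133 and 181 CPM. In tumor cells 2 of 12 were higher and 7 lower in PyMT-M, where 29.6% and 34.7% of all genes were, with a median log2 ratio of -0.76. Cdkn1a, at 97.0 and 21.0 CPM, had the highest tumor ratio of these inhibitors, and Ccng2 was among the lowest.

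The remaining classes held few cells. In lymphatic cells 10.9% (6.86 to 16.2) of 193 PyMT-N cells were called S or G2/M, and 2 of 6 PyMT-M cells. PyMT-N lymphatic cells resembled PyMT-N blood endothelial cells in list sums, at 481 and 486 CPM for the S list and 482 and 495 CPM for the G2/M list, and 2 genes were 1.5-fold higher (Ccnd2, Ccne2) and 2 lower (Uhrf1, Cdc6) of 39, where 18.3% and 14.5% of 11236 genes were. Between the libraries 2 of 20 genes with at least 50 UMIs were higher in PyMT-M lymphatic cells and 10 lower, where 20.0% and 30.4% of 7429 genes were, on 89004 UMIs in all in PyMT-M. The S list had 32 UMIs and the G2/M list 14 UMIs in PyMT-M. Genes thus passed the limit of 50 UMIs mainly through PyMT-N, which favors genes higher there, and no direction is read from these counts.

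In fibroblasts 6 of 33 PyMT-M cells were called (18.2%, 6.98 to 35.5), against 4 of 52 PyMT-N cells (7.69%, 2.14 to 18.5). Ube2c had 61 UMIs in PyMT-M against 13 in PyMT-N fibroblasts (191 and 9.94 CPM). Of the 9 genes with at least 50 UMIs 6 were 1.5-fold higher in PyMT-M and 2 lower, where 12.2% and 24.5% of 5142 genes were. The 2 lower were Ccnd1 and Ccnd2. The G2/M list had 309 UMIs in PyMT-M and 189 UMIs in PyMT-N fibroblasts, out of 320003 and 1308331 UMIs in all. Mitosis genes thus passed the limit of 50 UMIs largely through PyMT-M, which favors genes higher there. No direction is read from these fibroblast counts.

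In the Ptprc+ class 21 of 49 PyMT-M cells were called (42.9%, 28.8 to 57.8), against 21 of 142 PyMT-N cells (14.8%, 9.39 to 21.7). Only 11.1% of PyMT-M and 51.1% of PyMT-N Ptprc+ cells were deep enough for a call. If none of the shallower cells were cycling, the shares would be 4.76% and 7.55%, the opposite order. No direction is therefore read from the called shares of this class. Of 34 genes 17 were 1.5-fold higher in PyMT-M and 2 lower (Mcm2, Mki67), where 14.7% and 12.9% of 8433 genes were. The summed tumor markers were at 51.7% (PyMT-M) and 28.7% (PyMT-N) of their tumor-cell level in Ptprc+ cells. At that percent the G2/M list of tumor cells would give 997 and 68.4 CPM, against 734 and 384 CPM measured. The tumor marker Hmga2 was at 317 and 375 CPM in Ptprc+ cells, against 603 and 1458 CPM in tumor cells. Kcnq5, also on the tumor list, was at 357 and 302 CPM, while PyMT-N tumor cells held 0.855 CPM of it, so the list is not specific to tumor cells here. Called PyMT-M Ptprc+ cells had medians of 23421 (S) and 19185 (G2/M) UMIs, against 6947.5 in the others, and the part of tumor RNA or of mixed droplets was not tested.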

How the data were processed

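Single-cell libraries of 2 samples, PyMT-M and PyMT-N, were analysed. Per the labels and the deposited files, the authors made whole-number UMI counts per gene and barcode with Cell Ranger 8.0.0 against mm39, both named in the submitters' processing notes, and deposited them without normalization. Its annotation release was not given in the sources used here.

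Barcodes with at least 200 detected genes and at most 10% mitochondrial UMIs were kept. Cells were put in 5 classes by UMIs of a few genes, with at most 1 UMI of Krt8, Krt18 and Rhox5 in blood endothelial cells, at least 3 UMIs of the lymphatic genes, at least 3000 CPM of Col3a1 in fibroblasts and at least 1 UMI of Ptprc. A cell that met the blood and lymphatic rules alone was lymphatic, and a cell that met other pairs was left out (60 PyMT-M and 88 PyMT-N cells), and 721 and 693 cells met no rule. Cells were thinned at random to 5000 UMIs for phase calls. A gene was left out of the call when its own level in called cells was read. Ratios are of summed CPM, with exact Poisson intervals, and shares have Clopper-Pearson intervals. A gene was counted as higher or lower at 1.5-fold among genes with at least 50 UMIs over both groups. With 1 library per condition no test was run.

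The members and lists were chosen with earlier results of these data known. All 40 members were named, and of each other cell cycle list the 3 highest and 3 lowest by blood endothelial ratio, besides the 10 other genes with the highest ratio of cycling to uncalled cells and the markers. Scrublet (scanpy 1.11.5) called 0 PyMT-M and 152 PyMT-N cells, so its threshold did not work in PyMT-M, and doublets were kept. Reads that also match near-identical copies, known for Pcna, Tyms, Ccnb1 and Ccnb2, may not have been counted, which makes those levels uncertain. Promoters came from RefSeq (GRCm38.p6) and the code was tested on simulated data. Python 3.11.15, numpy 2.4.6, scipy 1.17.1 and pandas 2.3.3 were used.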

Additional observations from a re-analysis of the deposited data

Results flagged for a closer look

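The gap between tumor and blood endothelial cells ran in opposite directions in the libraries. The cycling share of tumor cells minus that of blood endothelial cells was 41.6 percentage points in PyMT-M and -8.76 in PyMT-N. Of the 40 genes, 26 were higher in tumor cells in PyMT-M and lower in PyMT-N, with both intervals clear of 0. The share of all genes with this pattern was not counted. With 1 library per subline the difference between the sublines was not tested.

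Within cycling cells, the ratio of PyMT-M over PyMT-N lay on opposite sides of 0 in the cell classes for 7 genes, with both intervals clear of 0. These differences were not tested, and the share of all genes with this pattern was not counted. Other genes had opposite signs with an interval that included 0 in at least 1 class. The log2 ratios in blood endothelial and tumor cells were 0.61 and -0.50 for Mcm2, 0.37 and -0.51 for Pcna, 0.24 and -1.52 for Tyms, 0.22 and -0.45 for Cdk1, and 0.21 and -0.13 for Top2a. They ran the other way for Cenpf, at -0.51 and 0.20, and for Bub1, at -0.54 and 0.30. With a cutoff of 10 UMIs the blood endothelial ratios of Cdk1 (-0.047) and Top2a (-0.041) no longer lay above 0, and their intervals included 0.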

How the results depend on the processing

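No paired analysis was possible because each subline had 1 library. Under every other setting tried, some of them chosen after seeing the data, no ratio of the 40 genes over all blood endothelial or tumor cells took the other sign, and no gene became 1.5-fold lower in PyMT-M blood endothelial cells. The count of 35 genes ranged from 28 to 40 at 1.5-fold. The 28 came with a limit of at least 200 UMIs, under which fewer of the 40 were tested, Cdc6 being among those left out. It was 18 at 2-fold, for which the share of all genes was not counted. The S and G2/M log2 ratios in blood endothelial cells were 1.10 and 1.21 with a 2-fold limit on detected genes, 0.67 and 0.78 as means over cells, and 1.09 and 1.19 in cells of at least 5000 UMIs. The cycling share of blood endothelial cells in PyMT-M and PyMT-N was 27.3% and 31.3% without thinning, which turned its order, as did the 8 of 68 and 1 of 6 cells called among those of 2000 to 3000 UMIs. It was 48.8% and 24.7% with a cutoff of 3 UMIs, 25.6% and 8.57% with the G2/M list alone, and 27.0% and 8.82% in cells of 5000 to 8000 UMIs. Thinned to 2000 UMIs with a cutoff of 2, which kept 545 and 1012 cells, it was 32.7% and 20.1%. At 3000 UMIs with a cutoff of 3 it was 29.1% and 15.5%, and at 8000 UMIs with a cutoff of 8, 55.2% and 13.6%. It was 30.2% and 9.71% at 5000 UMIs with a cutoff of 8, and 50.5% and 11.3% in cells of 8000 to 20000 UMIs. The tumor share was 93.9% and 32.5% without thinning, 86.1% and 9.53% with a cutoff of 3, 61.9% and 3.73% with a cutoff of 8, 62.7% and 3.24% with the G2/M list alone, 79.1% and 8.76% at 2000 UMIs, and 70.1% and 6.06% without cells that held markers of other types, which left 1225 and 99 cells. In PyMT-N it was 5.62% at 3000 UMIs. The markers of other types included the fibroblast markers, which summed to 89.7 CPM in PyMT-M and 493 CPM in PyMT-N tumor cells, with Pdgfrb at 36.5 and 244 CPM. Whether the cells left out were mixed was not tested. Within cycling cells, with a cutoff of 8 or 10, 13 of 80 ratios took the other sign in blood endothelial cells and 7 of 80 in tumor cells. Of these, Cdk1 (-0.047) and Top2a (-0.041) in blood endothelial cells, at a cutoff of 10, had intervals clear of 0 at a cutoff of 5. The cause of these shifts was not tested. Depth limits the blood endothelial share, since only 51.6% of PyMT-M cells reached 5000 UMIs.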

Other observations

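The 10 genes outside the list with the highest ratio of cycling to uncalled blood endothelial cells, taken as the lower ratio of the libraries, were H1f5, Pimreg, Depdc1a, Kif15, Dlgap5, Nuf2, Mxd3, H2ac8, Stil and H2ac24. The linker histone gene H1f5 had 123 UMIs in cycling and 1 UMI in uncalled cells of PyMT-M, and 284 and 7 UMIs in PyMT-N. H2ac8, a histone H2A gene, had 335 against 10 and 548 against 29 UMIs. Of the spindle genes, the motor gene Kif15 had 82 against 2 and 166 against 2 UMIs and the kinetochore gene Nuf2 38 against 1 and 100 against 4 UMIs. The calls rest on other genes of the same programme, so these values are a description.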
